A study of Mus musculus with 6 samples.

Results

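The genes described here are the D and E cyclins, the kinases CDK4 and CDK6 that D cyclins bind, and inhibitors of these kinases. They were chosen by symbol, as Ccnd2, Ccnd3, Ccne1, Ccne2, Cdk4, Cdk6, Cdkn1a, Cdkn1b, Cdkn2c and Cdkn2d, and all 10 were found, each once, among the 55401 genes of the deposited tables. The study sequenced polyadenylated RNA from splenic germinal centre B cells that were sorted into subsets which the labels name DP and DN, with 3 libraries of each. All libraries came from wild-type (WT) C57BL/6 mice that had been injected into the peritoneum with SRBC (sheep red blood cells), which raise a germinal centre response that needs T cells. The mice were challenged again on day 5 and killed on day 12, and neither their age nor the markers behind the names DP and DN are given in the labels. Per the design text both subsets were taken from each of 3 mice. Which mouse a given library came from is not labelled, so the p-values reflect only how far these libraries spread, and that spread may be technical.

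In textbook outline, D cyclins are made in response to growth signals in G1 phase and switch on CDK4 and CDK6. These kinases begin to phosphorylate the retinoblastoma protein, which releases E2F factors, and E cyclins with CDK2 complete that step and open S phase. INK4 inhibitors bind CDK4 and CDK6 and keep D cyclins off them, while CIP/KIP inhibitors bind whole cyclin-kinase complexes. In mouse germinal centres, cyclin D3 is known as the D cyclin that dark zone cells need for their divisions, and cyclin D2 as one that MYC induces in light zone cells selected by T cells.

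Gene counts totalled 17509384 to 20538024 in the DP libraries and 8904415 to 11897360 in the DN libraries, a mean depth 1.88 times greater in DP. Levels are given in CPM, that is counts over library sizes corrected for composition (TMM), and a floor of 3 counts was worth 0.155 to 0.183 CPM in DP and 0.236 to 0.315 CPM in DN libraries. The B cell identity of both subsets could be checked, as Ms4a1 stood at 491 CPM in DP and 965 CPM in DN and Pax5 at 474 CPM in DP and 638 CPM in DN. All 5 B cell markers were lower in DP (summed 1316 to 1346 CPM in DP and 2331 to 2387 CPM in DN). The 7 germinal centre markers summed to between 516 and 528 CPM in DP and between 1361 and 1398 CPM in DN, and 6 of them were lower in DP and 1 higher. Markers of other cells were low and mostly lower in DP: 8 of 8 erythroid genes fell (summed 16.6 to 18.6 CPM in DP and 64.5 to 74.4 CPM in DN), and of 7 macrophage genes tested 6 fell and 1 rose (summed 12.0 to 13.4 CPM in DP and 24.6 to 27.4 CPM in DN). T cell markers summed to at most 1.25 CPM in DP and 3.78 CPM in DN, and neutrophil markers, with Ly6g at 0 in every library, to at most 0.428 CPM in DP and 1.57 CPM in DN. Of the plasma cell markers tested, 3 rose and 1 fell (summed 293 to 306 CPM in DP and 387 to 398 CPM in DN), so the lower sum in DP came from the 1 gene that fell. Of the naive follicular B cell markers tested, 1 rose and 4 fell (summed 134 to 143 CPM in DP and 330 to 332 CPM in DN). The part of such cells in the results below was not tested.

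The cyclins and kinases were mostly higher in DP and the INK4 inhibitors lower. Of the 10 genes, 9 passed the filter on low counts and were tested with edgeR's quasi-likelihood test, with p-values adjusted over 11296 genes. At an adjusted p under 0.05, 5 were higher in DP (Ccnd2, Ccnd3, Ccne1, Cdk4 and Cdk6), 2 were lower (Cdkn2c and Cdkn2d) and 2 were not called (Ccne2 and Cdkn1b). Over all genes tested, 75.9% were called, 38.3% higher and 37.6% lower, so the share of these genes that changed was close to that of all genes. That split was 4328 genes higher and 4243 lower in DP, and 3288 higher and 5359 lower with library totals alone. By size, 3 of the genes described here were called with at least 2-fold higher levels in DP (12.3% of all genes) and 1 with at least 2-fold lower levels (12.8%). The median log2 fold change of the 9 genes was 0.26, beside 0.0061 over all genes tested. For 7 of the 9 the libraries of DP and DN did not overlap, which held for 77% of all genes tested. In bulk samples, fewer cells with a transcript and less of it per cell cannot be told apart.

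**Figure D1:**
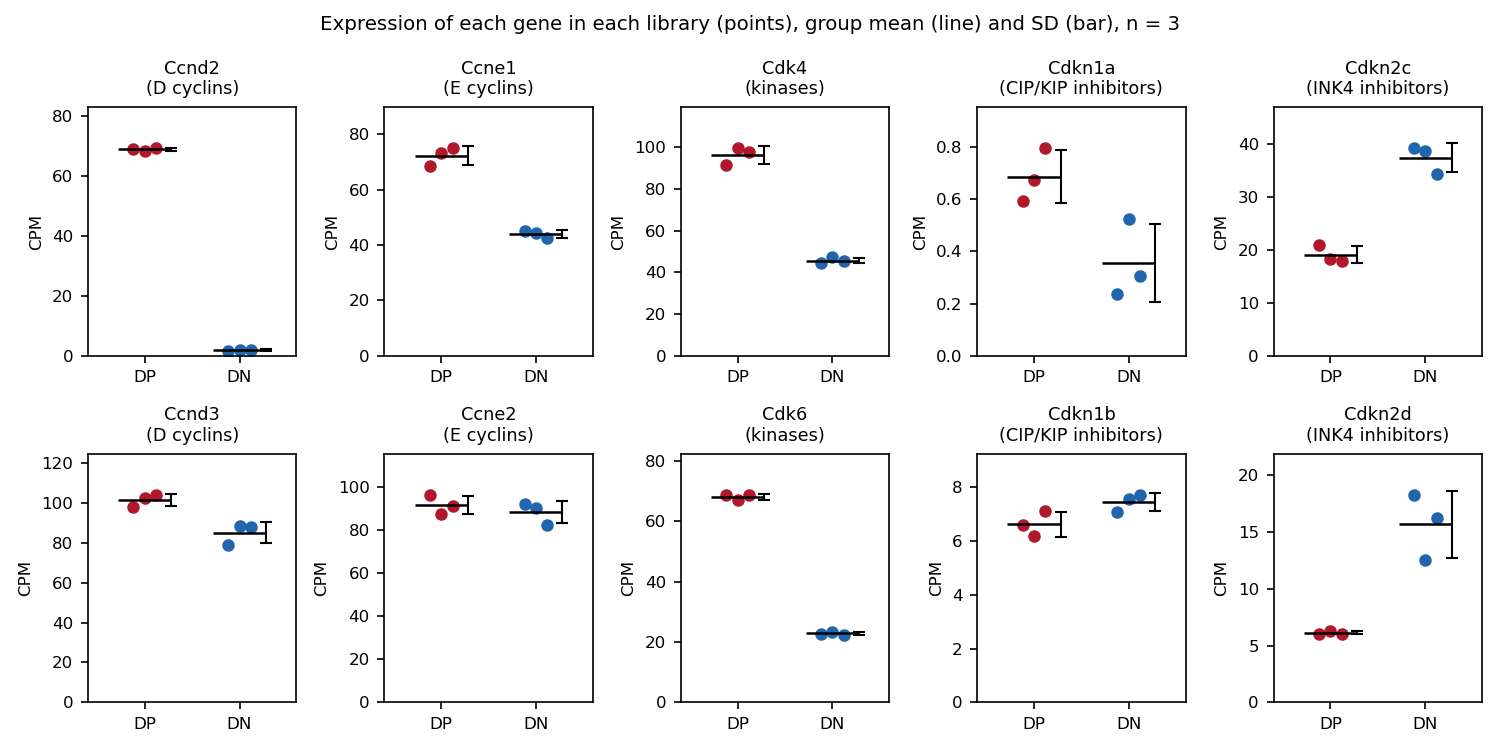
Expression of the 10 genes in each library, in CPM on linear axes that start at 0, with DP left and DN right; points are libraries, lines are means and bars are SD (n = 3). Ccnd2 sits near 69 CPM in DP and near 2 CPM in DN, Cdkn2c and Cdkn2d are lower in every DP library, and Ccne2 and Cdkn1b overlap between the subsets.

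The letters before a RefSeq transcript start are shown for Cdk4 and Cdk6, the kinase genes that rose together, and for Cdkn2d, the inhibitor gene that fell furthest. RefSeq starts can lie inside the gene positions given further below, which are from GENCODE. There Cdk6 starts at chr5:3341485, so its whole window lies inside the gene. Cdkn2d, on the minus strand, starts at chr9:21291407, so most of its printed letters lie inside the gene. Each line holds the 250 bases upstream of a RefSeq transcript start in the GRCm38.p6 build (mm10), 5′ to 3′ on the gene's strand, and capitals mark CACGTG, the E-box that MYC and MAX bind.
Cdk4, chr10:127063285-127063534, plus strand: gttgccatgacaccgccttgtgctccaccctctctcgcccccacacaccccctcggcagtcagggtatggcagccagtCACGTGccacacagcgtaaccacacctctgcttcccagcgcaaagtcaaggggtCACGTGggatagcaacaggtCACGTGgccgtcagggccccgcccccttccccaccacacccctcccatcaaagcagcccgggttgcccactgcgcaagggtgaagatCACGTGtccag
Cdk6, chr5:3343643-3343892, plus strand: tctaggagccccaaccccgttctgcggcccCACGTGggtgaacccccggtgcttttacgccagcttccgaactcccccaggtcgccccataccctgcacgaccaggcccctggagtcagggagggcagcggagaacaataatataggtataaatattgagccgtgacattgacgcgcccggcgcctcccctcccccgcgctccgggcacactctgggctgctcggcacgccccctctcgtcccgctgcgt
Cdkn2d, chr9:21291210-21291459, minus strand: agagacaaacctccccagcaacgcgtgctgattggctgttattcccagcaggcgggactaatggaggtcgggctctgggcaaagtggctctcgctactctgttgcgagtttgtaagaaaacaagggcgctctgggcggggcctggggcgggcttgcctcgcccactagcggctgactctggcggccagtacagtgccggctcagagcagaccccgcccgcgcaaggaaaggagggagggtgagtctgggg

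The Cdk4 window held 4 copies of CACGTG, whose first bases lay at -172, -118, -98 and -11 from the start. Of 32851 windows of the same length (250 bases before to 50 after a start), 7.15% held at least 1 copy and 8 windows at least 4. The Cdk6 window held 1 copy at -220, and 1 of the 2 Cdkn2c windows held 1 copy that began at base 35 of the transcript. CACGTG reads the same on both strands, and no copy was found in the windows of Ccnd3, Ccne1, Cdkn1a, Cdkn1b or Cdkn2d. Other motifs were searched on both strands of the same 11 windows, which cover 8 of the 10 genes and leave out Ccnd2 and Ccne2. The FOXO motif GTAAACA, present in 3.65% of all windows, was found in 1 of the 2 Ccnd3 windows. None of the 11 windows held the E2F motifs TTTCGCGC, TTTGGCGC or TTCCCGCC, or the STAT motif TTCNNNGAA. Nor did any hold CATGTCC, part of a p53 site, or TTTGAA, the CHR element of genes expressed in G2 and M phase. The E2F motifs occur in 0.323%, 0.514% and 2.19% of all windows, the STAT motif in 8.30%, the NF-kB motif in 1.63%, CATGTCC in 3.03% and the CHR element in 17.9%. The Cdkn1a window that starts at chr17:29090729 holds CATGTCT, which differs from CATGTCC in its last base. The search for CATGTCC alone therefore cannot show that p53 sites are absent. The absence of a match says only that these letters are not in these windows. Binding was not measured.

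Among the D cyclins, Ccnd2 was nearly silent in DN and abundant in DP, while Ccnd3 was abundant in both. Ccnd2 (ENSMUSG00000000184.12, chr6:127125162-127152193, minus strand), which encodes cyclin D2, had 1163, 1321 and 1133 counts in the DP libraries and 22, 20 and 20 counts in the DN libraries. Those are 69.0, 68.4 and 69.2 CPM in DP and 1.73, 2.10 and 2.05 CPM in DN. The DP libraries lay within 1 CPM of each other, and every DN library lay far below all of them but above its floor. With a log2 fold change of 5.14 ± 0.11 (standard error) and an edgeR adjusted p of 1.45e-45, this was a 35.4-fold difference that ranked 20th among the rises of all genes tested. A ratio of the summed counts gave 35.5 with a 95% exact counting interval of 27.7 to 46.4, which covers counting error only.

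Ccnd3 (ENSMUSG00000034165.16, chr17:47505051-47599691, plus strand), which encodes cyclin D3, had 98.1, 103 and 104 CPM in DP and 79.0, 88.5 and 87.6 CPM in DN. The groups did not overlap, and the difference was small beside that of Ccnd2. Its log2 fold change was 0.26 ± 0.05 (edgeR adjusted p = 2.94e-06). This call was lost with library totals alone (0.06, adjusted p = 0.231), a scaling that moved the median of all genes tested to -0.19; over all alternatives the adjusted p ran from 2.30e-11 to 1. At its 3′ end Ccnd3 shares 361 bases, 4.11% of its exon length, with the oppositely oriented Bysl, a ribosome assembly gene. Bysl itself had 3548, 4168 and 3257 counts in DP and 676, 507 and 560 counts in DN, and since the strand setting of the counting is not given, its part in the Ccnd3 value was not tested.

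To compare levels between genes, CPM were divided by the length of all exons of the gene in kilobases. On that scale Ccnd2 made up 39.6%, 38.4% and 38.3% of the summed Ccnd2 and Ccnd3 level in the DP libraries and 2.00%, 2.16% and 2.14% in the DN libraries. Cyclin D3 message was therefore the larger part in every library of both subsets. The log2 ratio of Ccnd2 to Ccnd3 was -0.66 ± 0.04 in DP and -5.54 ± 0.06 in DN (SD, n = 3), a difference of 4.88 with no overlap (two-sided exact permutation p = 0.1, which is the lower limit with 3 libraries a group). When the length of the longest transcript was used, the Ccnd2 share averaged 29.3% ± 0.641 in DP and 1.38% ± 0.0583 in DN. The summed level of both D cyclins was 18.9 ± 0.345 CPM per kilobase in DP and 9.90 ± 0.621 CPM per kilobase in DN, a 1.91-fold difference (exact permutation p = 0.1). Most of that added level was Ccnd2, at 7.32 CPM per kilobase in DP and 0.208 CPM per kilobase in DN. Ccnd3 added a smaller part, at 11.6 CPM per kilobase in DP and 9.69 CPM per kilobase in DN. Ccnd1, the D cyclin that most lymphocytes do not use, had 12 counts in the 3 DP libraries together and 11 in the 3 DN libraries.

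**Figure D2:**
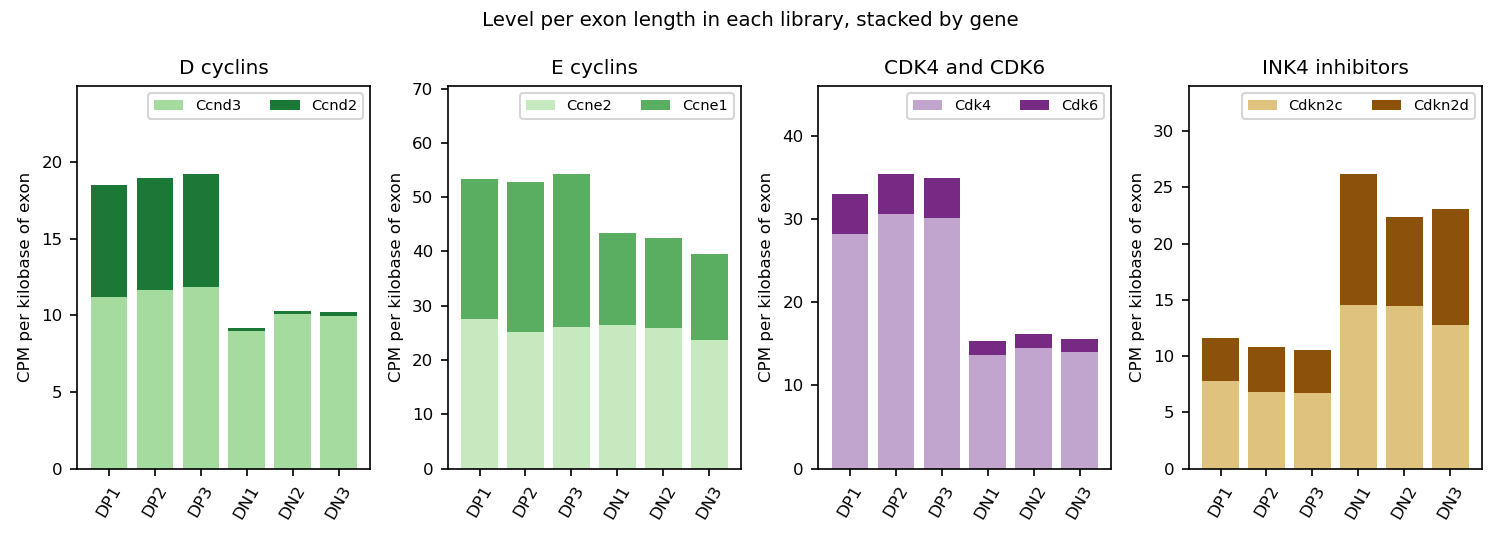
Levels in CPM per kilobase of exon in each library, stacked for the pair of genes in each role, with the 3 DP libraries left of the 3 DN libraries. The D cyclin total averages 18.9 in DP and 9.90 in DN, the CDK4 and CDK6 total 34.5 in DP and 15.7 in DN, and the INK4 total 11.0 in DP and 23.9 in DN.

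The E cyclins, which activate CDK2 at the entry to S phase, moved apart. Ccne1 (ENSMUSG00000002068.16, chr7:38097984-38107534, minus strand) had 68.5, 73.4 and 74.8 CPM in DP and 45.2, 44.5 and 42.4 CPM in DN, with every DP library above every DN library. It was higher in DP by 0.71 ± 0.06 on the log2 scale (edgeR adjusted p = 1.30e-17). Ccne2 (ENSMUSG00000028212.16, chr4:11191351-11204779, plus strand), its paralogue, had 96.5, 87.8 and 91.2 CPM in DP and 92.5, 90.3 and 82.7 CPM in DN. The groups overlapped, and the log2 fold change of 0.05 ± 0.05 did not pass (edgeR adjusted p = 0.361). Its direction depended on the scaling, as it was -0.15 with library totals alone (edgeR adjusted p = 0.00592). Without a filter on low counts, when the median of all genes tested was 0.06, it kept its direction at 0.12 and passed (edgeR adjusted p = 0.0286). Over all alternatives the adjusted p ran from 0.00592 to 1. Of the exon length of Ccne2, 17.4% lies opposite to exons of Ints8, a subunit gene of the Integrator complex, which had 834, 972 and 867 counts in DP and 467, 372 and 375 in DN.

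The balance within the E cyclins does not depend on scaling between libraries. Per exon length, the ratio of Ccne1 to Ccne2 was 0.932, 1.10 and 1.08 in DP and 0.641, 0.647 and 0.673 in DN, without overlap. On the log2 scale it was 0.05 ± 0.13 in DP and -0.61 ± 0.04 in DN (SD, n = 3), a difference of 0.66 (exact permutation p = 0.1). Ccne2 was thus 49.2% ± 2.24 of the pair in DP and 60.5% ± 0.606 in DN. The summed level of both was 53.4 ± 0.750 CPM per kilobase in DP and 41.9 ± 2.02 CPM per kilobase in DN, which made the E cyclins the most abundant role per exon length in both subsets. That place depends on the division by length. In CPM not divided by length, Ccnd3 at 101 and Cdk4 at 96.1 stood above Ccne2 at 91.8 and Ccne1 at 72.2 in DP.

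Both kinases that D cyclins activate were higher in DP, and Cdk6 by more than Cdk4. Cdk4 (ENSMUSG00000006728.12, chr10:127063534-127067920, plus strand) had 91.4, 99.3 and 97.7 CPM in DP and 44.4, 47.1 and 45.5 CPM in DN. The lowest DP library lay far above the highest DN library, and the log2 fold change was 1.08 ± 0.05 (edgeR adjusted p = 1.01e-26). Its 3′ end faces Tspan31 exons over 19.7% of the exon length; Tspan31, a tetraspanin gene, had 114, 164 and 118 counts in DP and 23, 14 and 11 in DN, against 1540, 1917 and 1599 counts of Cdk4 in DP and 565, 449 and 443 in DN. Cdk6 (ENSMUSG00000040274.11, chr5:3341485-3531008, plus strand) had 68.7, 67.0 and 68.6 CPM in DP and 22.7, 23.3 and 22.5 CPM in DN. Within each subset its libraries agreed closely, and it was higher in DP by 1.58 ± 0.06 in log2 units (edgeR adjusted p = 4.54e-31), or 2.98-fold.

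Per exon length Cdk4 remained the main kinase message. Cdk6 made up 14.9%, 13.6% and 14.0% of the Cdk4 and Cdk6 level in the DP libraries and 10.6%, 10.3% and 10.3% in the DN libraries. The log2 ratio of Cdk6 to Cdk4 was -2.60 ± 0.08 in DP and -3.11 ± 0.03 in DN, a difference of 0.50 without overlap (SD, n = 3; exact permutation p = 0.1). Their summed level was 34.5 ± 1.24 CPM per kilobase in DP and 15.7 ± 0.447 CPM per kilobase in DN, a 2.20-fold difference.

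The INK4 inhibitors were lower in DP. Cdkn2c (ENSMUSG00000028551.14, chr4:109660876-109667189, minus strand), which encodes the inhibitor p18-INK4c, had 20.9, 18.3 and 18.0 CPM in DP and 39.1, 38.7 and 34.3 CPM in DN. All DP libraries lay below all DN libraries, and the gene fell by 0.98 ± 0.08 in log2 units (edgeR adjusted p = 1.61e-17). Cdkn2d (ENSMUSG00000096472.2, chr9:21288410-21291407, minus strand), which encodes p19-INK4d, had 6.05, 6.32 and 6.05 CPM in DP and 18.2, 12.5 and 16.2 CPM in DN. Relative to their mean the DN libraries varied more than for any other member tested, although in CPM the SD was larger for Ccnd3 and Ccne2. No DN library came near DP, and the gene fell by 1.36 ± 0.12 in log2 units (edgeR adjusted p = 2.87e-15). The ratio of Cdkn2c to Cdkn2d overlapped between the subsets, at 2.02, 1.70 and 1.74 in DP and 1.26, 1.82 and 1.24 in DN (exact permutation p = 0.3).

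Set against the kinases they bind, the INK4 messages were lower in DP than in DN. The summed INK4 level was 11.0 ± 0.562 CPM per kilobase in DP and 23.9 ± 2.02 CPM per kilobase in DN. Relative to CDK4 and CDK6, the INK4 level was 0.352, 0.307 and 0.301 times the kinase level in DP and 1.71, 1.38 and 1.48 times in DN. The ratio was below 1 in every DP library, but its side of 1 in DN depended on the length used. With the longest transcript it was 0.252, 0.219 and 0.215 in DP and 1.21, 0.979 and 1.05 in DN, and in CPM not divided by length it was 0.168, 0.148 and 0.144 in DP and 0.855, 0.727 and 0.743 in DN. The log2 of this ratio was -1.65 ± 0.12 in DP and 0.60 ± 0.16 in DN (SD, n = 3), a difference of -2.25 (exact permutation p = 0.1) that was -2.24 with the longest transcript. This ratio was chosen after the values were seen, and message levels do not give protein levels.

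The CIP/KIP inhibitors were low in both subsets. Cdkn1b was not called, and Cdkn1a had too few counts to be tested in the main comparison. Cdkn1b (ENSMUSG00000003031.14, chr6:134920401-134925513, plus strand), which encodes p27-KIP1, had 6.59, 6.16 and 7.09 CPM in DP and 7.07, 7.56 and 7.70 CPM in DN. The highest DP library just passed the lowest DN library, and the log2 fold change was -0.17 ± 0.14 (edgeR adjusted p = 0.259). With library totals alone it was -0.37 and passed (adjusted p = 0.0147, in a range from 0.0147 to 1). Cdkn1a (ENSMUSG00000023067.14, chr17:29090976-29100727, plus strand), the p53-induced inhibitor p21-CIP1, was below the filter, with 10, 13 and 13 counts in DP and 3, 5 and 3 counts in DN. Those are 0.593, 0.673 and 0.794 CPM in DP and 0.236, 0.525 and 0.308 CPM in DN, without overlap but close to or at the floor in DN. The ratio of the summed counts was 1.99 with a 95% exact counting interval of 0.993 to 4.34, so a difference was not detectable at this depth. Without a filter its log2 fold change was 1.05 (edgeR adjusted p = 0.116), and without DN replicate 2, when it passed the filter, 1.34 (adjusted p = 0.0423, in a range from 0.0423 to 0.265).

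Together the CIP/KIP genes reached 1.65 ± 0.122 CPM per kilobase in DP and 1.74 ± 0.101 CPM per kilobase in DN, with overlap (exact permutation p = 0.3). The ratio of Cdkn1a to Cdkn1b was 0.115, 0.140 and 0.144 in DP and 0.0427, 0.0890 and 0.0512 in DN, on 3 to 5 counts of Cdkn1a in each DN library (exact permutation p = 0.1). INK4 genes therefore made up most of the inhibitor message in both subsets, at 87.0% ± 1.24 in DP and 93.2% ± 0.873 in DN. Of other inhibitors of these families, Cdkn1c had 14 counts in the 3 DP libraries and 23 in the 3 DN libraries, and Cdkn2b 6 in DP and 1 in DN. Cdkn2a passed the filter with 49 counts in DP and 33 in DN and was not called (-0.14 ± 0.36, edgeR adjusted p = 0.731).

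**Figure D3:**
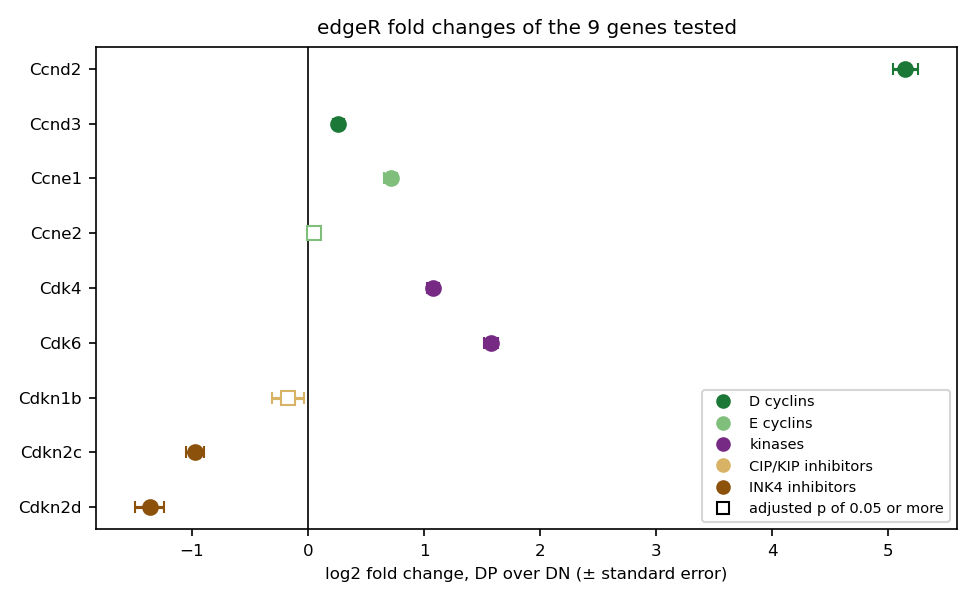
Log2 fold changes of DP over DN for the 9 genes tested with edgeR, with standard errors; filled circles passed an adjusted p of 0.05, open squares did not, and colours give the role. Ccnd2 stands apart at 5.14, both kinases lie above 1, and both INK4 genes lie to the left of 0.

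In DP the order of the 10 genes per exon length was Cdk4, Ccne1, Ccne2, Ccnd3, Ccnd2, Cdkn2c, Cdk6, Cdkn2d, Cdkn1b and Cdkn1a, from 29.6 ± 1.29 to 0.193 ± 0.0285 CPM per kilobase. Neighbours whose libraries overlapped were Ccne1 with Ccne2 and Ccnd2 with Cdkn2c. The DN order was Ccne2, Ccne1, Cdk4, Cdkn2c, Cdkn2d, Ccnd3, Cdkn1b, Cdk6, Ccnd2 and Cdkn1a, from 25.3 ± 1.47 to 0.1003 ± 0.0424 CPM per kilobase. Cdk4 overlapped there with Cdkn2c, Cdkn2d with Ccnd3, and Cdkn1b with Cdk6. In DP Cdkn2c was at 7.10 ± 0.593 CPM per kilobase beside Cdk4 at 29.6 ± 1.29, and in DN at 13.9 ± 1.01 beside Cdk4 at 14.1 ± 0.423. With the longest transcript as the length, Ccnd3 moved up to stand level with Cdk4 and Ccne1 in DN, at 22.0 ± 1.36 CPM per kilobase, and the DP order was the same. Cdk4 and Cdkn2c then no longer overlapped in DN, at 22.2 ± 0.670 and 15.1 ± 1.09 CPM per kilobase, nor did Cdkn1b and Cdk6 there, Cdkn2d no longer stood next to Ccnd3, and both overlaps in DP were lost.

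Other genes of the pathway were taken from lists by role. Every gene of these lists named below as rising or falling passed an edgeR adjusted p of 0.05, its log2 fold change is given with its standard error, and levels in CPM are given with the SD of 3 libraries. Among the cyclins and kinases that act after the D cyclins, Cdk1, the mitotic kinase, rose by 0.55 ± 0.04 and Ccna2, the S phase cyclin A2, by 0.32 ± 0.04, while Cdk2, the partner of the E cyclins, fell by 0.55 ± 0.05 on the log2 scale. Cdk2 was at 59.2 ± 2.43 CPM in DP and 86.1 ± 6.14 CPM in DN. Of 8 genes for activation and assembly of cyclin-dependent kinases, 7 rose and 1 fell, with a median of 0.36 (5 and 1 with library totals alone, median 0.16). Cdc37, the co-chaperone that loads CDK4 and CDK6 onto HSP90, was at 999 ± 9.40 CPM in DP and 651 ± 24.8 CPM in DN (0.62 ± 0.04). The phosphatases moved in opposite directions: Cdc25a, which acts at the entry to S phase, rose by 0.86 ± 0.05, and Cdc25b, which acts before mitosis, fell by 1.53 ± 0.04.

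Of 13 pocket protein, E2F and TFDP genes, which act downstream of the kinases, 5 rose and 7 fell with a median of -0.48. E2f2, an activating E2F, fell by 1.45 ± 0.05, while E2f4, a repressing one, rose by 0.93 ± 0.05 and the partner Tfdp1 by 0.83 ± 0.04. Of 19 genes for the breakdown of cyclins and inhibitors, 11 rose and 4 fell with a median of 0.23, but 6 rose and 8 fell with library totals alone (median 0.03). Ddb1, an adaptor of CUL4 ligases, rose by 0.89 ± 0.04 and Skp1a, the adaptor of SCF ligases, by 0.83 ± 0.05. Fbxo31, an F-box protein reported in human cells to target cyclin D1, was at 12.4 ± 0.897 CPM in DP and 4.90 ± 0.158 CPM in DN (1.34 ± 0.13).

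The 16 regulators known to act on cyclin or inhibitor genes were mixed, with 7 higher and 8 lower in DP and a median of -0.16. Myc, which induces Ccnd2 and Cdk4, was at 62.0 ± 0.628 CPM in DP and 5.32 ± 0.323 CPM in DN (3.55 ± 0.09). Bcl6, which represses Ccnd2, was at 76.6 ± 1.09 CPM in DP and 160 ± 1.94 CPM in DN (-1.06 ± 0.04), and Foxo1, whose family represses D cyclin genes, at 28.7 ± 0.668 CPM in DP and 65.9 ± 0.746 CPM in DN (-1.20 ± 0.06). Myc, Bcl6 and Foxo1 are named because their p-values were the smallest of this list. The part of any of these regulators in the cyclin and kinase values was not tested. Over the 6 libraries the log2 CPM of Ccnd2 was most like that of Ubtf, Myc and Aatf among 7968 genes of at least 5 CPM, each with a Pearson r of 1.00. Ubtf rose by only 0.46, since r compares the shape over the libraries and not the size. For Ccnd3, Rack1 and Nubp2 were among the most alike, with r of 0.998 and 0.997. These r rest on 6 libraries in 2 groups and are descriptions of the difference between the groups.

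Genes of the later phases moved in both directions. Of 27 S phase genes, many of them E2F targets, 16 rose and 7 fell with a median of 0.13. Under library totals alone 7 were higher and 11 lower, and the median was -0.06. Thymidylate synthase, Tyms, rose by 0.98 ± 0.05 and the replication factor Mcm10 by 0.73 ± 0.04. Of 23 genes of G2 and M phase, 8 rose and 10 fell with a median of -0.0096 (5 and 14 with library totals alone, median -0.21). Ccnb1, cyclin B1, rose by 0.64 ± 0.04, and the spindle genes Nusap1 and Kif23 fell by 0.60 ± 0.04 and 0.53 ± 0.04. The summed level of these 23 genes was between 12404 and 13376 CPM in DP and between 15535 and 16732 CPM in DN, so that messages of dividing cells were abundant in both subsets. The part of differences in cell cycle phase in the values of the cyclins was not tested.

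The p53-induced genes, a group to which Cdkn1a belongs, were also mixed, with 3 of 11 tested higher and 6 lower in DP and a median of -0.18. Aen, a p53-induced nuclease, was at 137 ± 0.296 CPM in DP and 48.6 ± 5.12 CPM in DN (edgeR adjusted p = 2.95e-34). Trp53inp1 fell by 4.61 ± 0.10 and Btg2, an antiproliferative gene, by 1.97 ± 0.09, and Perp was at 0 in all libraries.

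**Figure D4:**
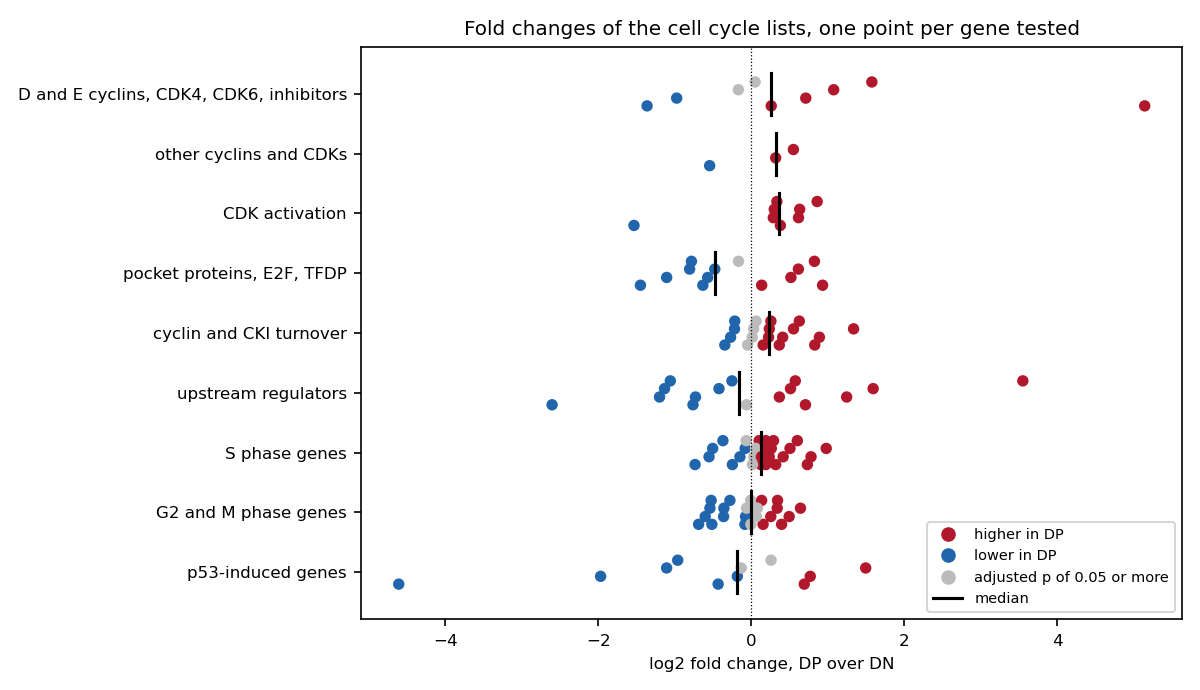
Log2 fold changes of DP over DN for the 9 genes tested and for the genes tested in 8 lists of the pathway, 1 point per gene and 1 line per median; red points were called higher in DP, blue points lower and grey points were not called. Most lists spread to both sides of 0, and Ccnd2 at 5.14 and Myc at 3.55 lie furthest to the right.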

How the data were processed

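The authors deposited raw read counts per gene for each library. The submitters' processing notes list Trim Galore (0.6.6), STAR (2.7.10a), HTSeq (0.13.5) and mm10, with no settings. The libraries were stranded, per the labels' protocols. For annotation release, strand setting of the counting and molecular identifiers the sources used here give nothing, and intervals cover counting error only. The 5 summary rows, which name no gene (9.56% of counts on average in DP and 12.6% in DN), were left out.

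Libraries were grouped by title. DP was tested against DN with edgeR 4.0.16 in R 4.3.3 (quasi-likelihood, TMM, filterByExpr with a minimum count of 10, robust, no block, Benjamini-Hochberg over 11296 genes, threshold 0.05). Standard errors were derived from the F statistics. The step was tested on simulated data. Lengths and positions came from GENCODE M21, to which 54349 gene identifiers matched with their version, and promoter windows from RefSeq. Ratios and sums were compared with exact permutation tests in SciPy 1.17.1. Alternatives used DESeq2 1.42.0, limma 3.58.1 and other scalings, filters and sets of libraries.

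The genes and lists were chosen with earlier results of these data known. From each pathway list the 3 tested genes with the smallest p were named, with all listed relatives of the cyclins and inhibitors; Ms4a1, Pax5, Perp and Ly6g were named after their values were seen. Some genes that these rules name are not reported here. Within-group library pairs differed by more than sampling noise (chi-square per degree of freedom 1.96 to 3.26).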

Additional observations from a re-analysis of the deposited data

How the results depend on the processing

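Under the 19 alternatives to the comparison of all genes, the log2 fold changes of Ccnd2 (4.95 to 5.22), Ccne1 (0.52 to 0.79), Cdk4 (from 0.88 up to 1.151), Cdk6 (1.38 to 1.65), Cdkn2c (-1.17 to -0.90) and Cdkn2d (-1.56 to -1.22) kept their direction and their call. With library totals alone, a scaling that lowers the median of all genes to -0.19, Ccne2 reversed to -0.15 and 4 of the genes were called lower in DP in place of 2, with Ccne2 and Cdkn1b added, and 4 higher, without Ccnd3. Against a minimum fold of 1.5, 1964 of all genes were higher and 1912 lower in DP, in place of 4328 and 4243, and Ccnd3 was not called; the stricter question accounts for the lower counts. Leaving out 1 library at a time gave 5 to 6 of the genes higher and 2 lower. The 5 planned ratios, the sums and the ratio of INK4 to kinases kept their direction throughout: 4.82 to 4.91 for Ccnd2 to Ccnd3, 0.62 to 0.73 for Ccne1 to Ccne2, 0.46 to 0.54 for Cdk6 to Cdk4 and -2.32 to -2.16 for INK4 to kinases. Thinning DP libraries to the depth of DN, and leaving out the 10 most abundant genes, both added after the data were seen, gave 5 higher and 2 lower again.

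With the replicate number as a block, 4338 genes were higher and 4251 lower in DP and 5 and 2 of the genes described here, and no call among them changed. Same-numbered libraries had correlations of deviations of 0.13, 0.03 and -0.01, so the numbers were not taken to pair the libraries; which libraries came from the same mouse is not known from these values. An exact sign-flip permutation test over 3 pairs cannot go below p = 0.25. Depth limits Cdkn1a, at 3 to 5 counts per DN library.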
